A study of Mus musculus with 10 samples.

Results

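Transcripts of the BCL2 family, the caspases, the inhibitor of apoptosis proteins, the death receptors and p53 were examined in germ cells of WT and GRTH Knock-In (KI) mice. The genes were taken by symbol from a list of 34 mouse genes of the apoptosis pathway, and 31 of the 34 were found among the 15507 genes of the expression table. Bcl2, Casp1 and Fas were not analysed here. All 31 genes passed the filter on low counts and were tested among 15389 genes. The lowest value of any of them in any library was 12 reads, and 11 of the 31 had a mean under 100 normalized counts in both genotypes.

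Apoptosis removes many germ cells in the normal testis, and the balance between BCL2 proteins decides in most tissues whether a cell enters it. Anti-apoptotic members such as BCL-xL and MCL1 hold the effectors BAX and BAK in check, and proteins with only a BH3 region, such as BIM and PUMA, release them. The effectors then open the outer mitochondrial membrane, and cytochrome c forms the apoptosome with APAF1 and caspase-9. Death receptors reach caspase-8 by a separate route through FADD, and the inhibitor of apoptosis proteins restrain caspases until SMAC and HTRA2 leave the mitochondria.

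Cells were released from testes by collagenase and trypsin and strained to a germ cell fraction, which holds spermatogonia, spermatocytes and spermatids in 1 mixture, in 5 WT and 5 homozygous KI mice aged 45 days. RNA of each mouse gave 1 library. The KI allele is a human GRTH gene with a missense mutation that puts a histidine in the place of an arginine, and WT mice carry the unaltered mouse gene, Ddx25, which encodes a testis RNA helicase. Round spermatids of homozygous KI males do not elongate, as earlier work on the line described. The comparison addresses which transcripts of the pathway differ between the genotypes.

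Recovered reads on genes numbered 13323024 to 16422347 per WT library and 12722086 to 15500582 per KI library, and 3 reads corresponded to 2.61 to 3.62 normalized counts. Ddx25 was at 8231 ± 2209 normalized counts in WT and at 101 ± 91.7 in KI (both SD, n = 5), where libraries 1 to 3 held 146 to 194 and libraries 4 and 5 held 2.88 and 1.84. Libraries 1 to 3 and libraries 4 and 5 of both genotypes form separate sets in the study's summary of the reads, so that values within each set are given beside the genes that passed the test. Markers of spermatids summed to 181366 to 335375 normalized counts in WT and 23822 to 56535 in KI, and 6 of 9 were lower in KI at the thresholds used here. For spermatocytes 0 of 7 and for spermatogonia 0 of 7 markers were called (1 and 2 at an unadjusted p under 0.05, by limma and by edgeR). At the limma adjusted p alone, 1 of each list was lower, Spo11 (adjusted p = 0.0232) and Gfra1 (0.0202). Of markers of cells outside the germ line, 5 of 9 for macrophages were higher and 1, Aif1, was lower, and 3 of 7 for Leydig cells, 2 of 5 for endothelium, 2 of the 4 tested for peritubular myoid cells and 0 of 8 for Sertoli cells were higher. At the limma adjusted p alone, Hsd17b3 of Leydig cells (adjusted p = 0.0398) and Gata4 of Sertoli cells (0.0408) were also higher. No marker in the table was at 0 in any library.

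A gene counted as differentially expressed when its limma adjusted p was under 0.05 and its levels differed by 1.5-fold or more, and 14.4% of all genes tested did so. Of the 31 genes, 3 did (9.68%): Bcl2l14 was down-regulated in KI, and Bcl2l11 and Birc3 were up-regulated. The shares over all genes were 6.13% up-regulated and 8.22% down-regulated. At the adjusted p alone, Htra2, Tnfrsf1a and Cflar were also higher in KI, which made 6 of 31 (19.4%) against 22.9% of all genes, of which 9.65% were higher and 13.3% lower. KI and WT libraries did not overlap for 3 of the 31 genes (9.68%), namely Bcl2l14, Bcl2l13 and Casp9, against 17.7% of all genes. A fit with the mouse number as a block is an alternative only, since whether libraries of the same number form pairs was not tested. With this block, 9 of the 31 genes passed the adjusted p (29.0%), beside 32.0% of all genes. The same 9 genes passed with a term for library set instead, which assumes no pairs. The share of all genes in that fit is not given here. Over both directions these shares were below those of all genes for the values as deposited, but the order turned when counts were scaled by library totals, where 8 of 31 genes were called (25.8%, beside 19.1% of all genes), 16 passed the adjusted p (51.6%, beside 40.5%) and 12 did not overlap (38.7%, beside 24.9%). Whether the 31 genes were called more or less often than all genes therefore depended on the scaling. Of the 6 genes past the adjusted p as deposited, 5 were higher in KI.

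**Figure D1:**
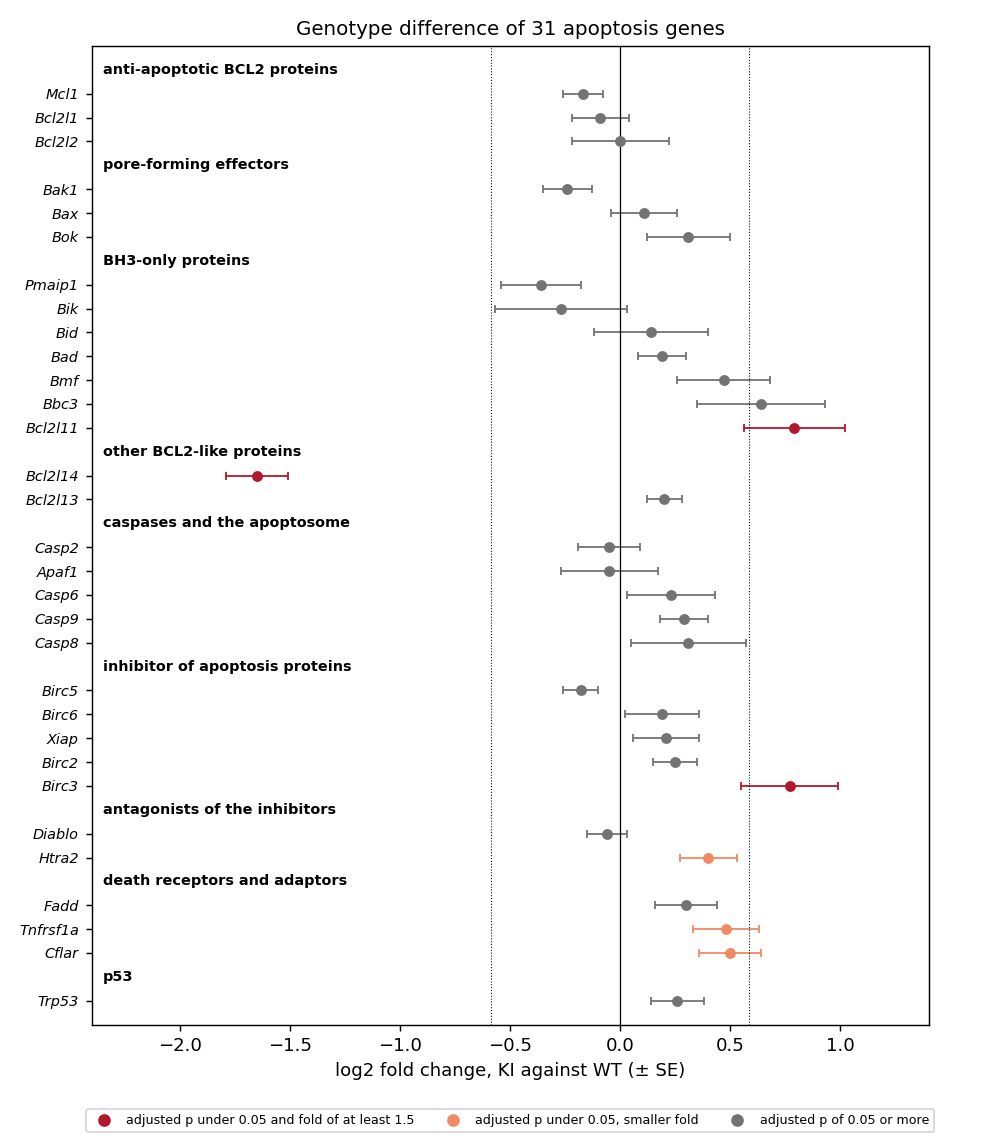
Log2 fold change of KI against WT, on the log2(normalized count + 1) scale, for the 31 apoptosis genes grouped by role. Points are limma estimates, bars are ± 1 SE (n = 5 and 5), dotted lines mark a fold change of 1.5, and Bcl2l14 stands apart at −1.65 while the other 30 lie between −0.36 and 0.79.

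The median log2 fold change of the 31 genes was 0.20, beside 0.03 over all genes, and 21 of 31 estimates were above 0 (67.7%, beside 53.6% of all genes). At an unadjusted p under 0.05, 11 were higher (35.5%, beside 16.2% of all genes) and 2 were lower in KI (6.45%, beside 18.4%). Scaling mattered for these counts. When counts were scaled by library totals the median of all genes moved to 0.25 and that of the 31 genes to 0.43, and by upper quartiles to 0.12 and 0.30. The 2209 calls over all genes split into 944 higher and 1265 lower as deposited, into 2145 and 789 under library totals and into 1296 and 1025 under upper quartiles. Of the 8 genes called under library totals, 7 were higher and Bcl2l14 was lower.

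Sequences around the starts of the 3 called genes are shown because these genes passed both thresholds. Their start regions differ in CG content, and a relation of CG content to the genotype difference was not tested. They span 250 bases before to 50 bases after a transcription start, were taken from RefSeq on GRCm38.p6, which shares its coordinates with mm10, and are written on the gene's strand with CG dinucleotides in capitals. Promoter sequences matched 28 of the 31 genes, and Pmaip1, Bik and Htra2 were not matched.
Bcl2l14, chr6:134396079-134396378, + strand: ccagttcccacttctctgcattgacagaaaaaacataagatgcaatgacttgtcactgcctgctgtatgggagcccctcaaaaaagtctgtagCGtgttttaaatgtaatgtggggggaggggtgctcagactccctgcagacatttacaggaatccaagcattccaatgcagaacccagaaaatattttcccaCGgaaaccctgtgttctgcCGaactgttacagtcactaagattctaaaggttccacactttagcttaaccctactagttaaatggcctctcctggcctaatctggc
Bcl2l14, second start, chr6:134414178-134414477, + strand: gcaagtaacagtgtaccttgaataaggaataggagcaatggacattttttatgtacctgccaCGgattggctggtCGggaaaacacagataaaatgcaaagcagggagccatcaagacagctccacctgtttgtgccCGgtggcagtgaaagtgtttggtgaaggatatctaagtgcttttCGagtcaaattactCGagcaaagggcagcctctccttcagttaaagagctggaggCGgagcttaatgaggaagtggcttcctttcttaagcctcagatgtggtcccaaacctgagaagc
Birc3, chr9:7873121-7873420, − strand: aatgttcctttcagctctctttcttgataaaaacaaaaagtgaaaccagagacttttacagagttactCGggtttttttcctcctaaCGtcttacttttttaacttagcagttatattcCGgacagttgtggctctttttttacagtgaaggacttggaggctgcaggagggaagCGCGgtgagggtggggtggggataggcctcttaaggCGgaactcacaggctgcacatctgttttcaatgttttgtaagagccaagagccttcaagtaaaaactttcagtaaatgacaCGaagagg
Bcl2l11, chr2:128125788-128126087, + strand: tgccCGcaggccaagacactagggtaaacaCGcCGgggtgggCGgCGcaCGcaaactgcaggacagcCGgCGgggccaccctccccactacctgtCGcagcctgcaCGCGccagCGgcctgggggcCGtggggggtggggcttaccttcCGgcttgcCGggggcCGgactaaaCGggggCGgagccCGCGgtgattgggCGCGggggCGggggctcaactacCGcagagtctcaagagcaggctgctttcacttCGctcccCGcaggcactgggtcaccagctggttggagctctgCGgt
The down-regulated Bcl2l14 held 3 and 6 CG dinucleotides in its start regions, and Birc3 held 7. Bcl2l11 held 27 in the region shown and 38 at a second start. The median was 7 over all 32851 promoters of this length and 20.5 over the 40 promoters of the 28 genes, which ranged from 1 to 46. The cAMP response element TGACGTCA, which reads the same on both strands, was found in 1.79% of all promoters and, among the 28 genes, in Birc2. The TATA box letters TATAAA, searched on both strands, were found in 13.6% of all promoters and in Cflar, Trp53 and Xiap. Neither was present in the 4 sequences shown.

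Bcl2l14 encodes BCL-G, a BCL2 relative with an isoform known from testis. The gene lies on chromosome 6 at 134396329 to 134438724 (GRCm38.p6, + strand). WT libraries 1 to 5 held 8587, 9593, 9646, 6727 and 6667 normalized counts, and KI libraries 1 to 5 held 2741, 2911, 2865, 2591 and 1949. The lowest WT library was far above the highest KI library, and in both genotypes libraries 4 and 5 were lower than libraries 1 to 3. On the log2(normalized count + 1) scale the level was 3.15-fold lower in KI (log2 fold change −1.65 ± 0.14 SE, adjusted p = 6.19e-07). The fall was −1.71 in libraries 1 to 3 alone and −1.58 in libraries 4 and 5 alone, and it passed the threshold in each of the 23 alternative fits.

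Bcl2l14 moved in the same direction as the 9 spermatid markers. Their sum averaged 303470 in WT libraries 1 to 3 and 188267 in WT libraries 4 and 5. It averaged 54055 in the first 3 KI libraries and 31241 in the last 2. The 6 called markers, Prm1, Prm2, Tnp1, Tnp2, Odf1 and Tssk6, made up most of this sum, with Prm2 alone at a mean of 89159 in WT. Acrv1, Spaca1 and Spaca3 fell less (log2 fold change −0.48, −0.53 and −0.30) and were not called, though Spaca1 passed the limma adjusted p (0.00604) without overlap. Their estimates were −0.26, −0.35 and −0.01 in libraries 1 to 3 alone and −0.80, −0.80 and −0.73 in libraries 4 and 5 alone. The part of spermatids in the fall of Bcl2l14 was not tested. In RNA of mixed cells, fewer cells of a type and less RNA per cell cannot be told apart. The antisense gene 4933406J09Rik overlaps exons of Bcl2l14 but was at 18.8 to 41.1 normalized counts in all libraries.

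Bcl2l13, which encodes the mitochondrial protein BCL-Rambo, was the other BCL2-like gene. It was at 855 ± 26.0 in WT and 984 ± 61.6 in KI (both SD, n = 5). Each KI library, from 939 to 1087, lay above each WT library, from 826 to 885, a difference of 0.20 ± 0.08 (SE) on the log2 scale. Its limma adjusted p was 0.0833, and it was 0.0497 with the mouse number as a block and 0.041 with a term for library set instead. By DESeq2 the adjusted p was 0.0424.

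Of the 7 genes for BH3-only proteins, Bcl2l11 was up-regulated in KI and the other 6 did not pass the test. Bcl2l11 encodes BIM, an activator of BAX and BAK that is induced when survival factors are withdrawn, and lies on chromosome 2 at 128126038 to 128162547 (+ strand). WT libraries held 84.7, 89.0, 78.5, 52.2 and 85.6 normalized counts, and KI libraries held 150, 168, 191, 107 and 80.0. KI libraries 1 to 3 were the highest of all, KI library 4 was above each WT library, and KI library 5 lay among the WT libraries. The fold change was 1.72 (log2 fold change 0.79 ± 0.23 SE, adjusted p = 0.0198).

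The log2 fold change of Bcl2l11 was 1.00 in libraries 1 to 3 alone (adjusted p = 8.01e-05) and 0.46 in libraries 4 and 5 alone (adjusted p = 0.366). It missed the threshold without WT library 4 (adjusted p = 0.0502), without KI library 2 (0.0547) and without KI library 3 (0.0563). The genotype difference did not differ detectably between the sets of libraries (adjusted p of the interaction, 0.411).

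Bad, whose product is held inactive by phosphorylation, had the highest level of the BH3-only genes per kilobase. WT libraries held 609, 733, 746, 880 and 651 normalized counts and KI libraries 727, 904, 850, 922 and 726. The groups overlapped (log2 fold change 0.19 ± 0.11 SE, adjusted p = 0.249). Bbc3, which encodes the p53 target PUMA, had an estimate of 0.64 ± 0.29 (SE) at an adjusted p of 0.128, with WT libraries spread from 12.6 to 48.0 and KI libraries from 37.2 to 52.1. It passed the threshold without WT library 5 (0.83, adjusted p = 0.0455) and in libraries 1 to 3 alone (0.97, adjusted p = 0.025). The estimate dropped to 0.36 without WT library 1 (adjusted p = 0.286) and to 0.13 in libraries 4 and 5 alone (adjusted p = 0.838). Bmf, whose product is tied to the cytoskeleton in healthy cells, had 0.47 (adjusted p = 0.122). The remaining 3 were Bid, a substrate of caspase-8, Bik and Pmaip1, which encodes NOXA, and their estimates were 0.14, −0.27 and −0.36.

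No gene for an anti-apoptotic BCL2 protein passed the limma test among the 3 measured, and at an unadjusted p under 0.05 limma and edgeR gave 0. Bcl2l1, which encodes BCL-xL, had the highest level per kilobase over all libraries, close to that of Mcl1. WT libraries held 1740, 1930, 1855, 2166 and 2273 normalized counts, and KI libraries held 1517, 1697, 1609, 2295 and 2377. In both genotypes libraries 4 and 5 were above libraries 1 to 3, and the groups overlapped (log2 fold change −0.09 ± 0.13 SE, adjusted p = 0.691), with a sign that turned under both other scalings. For Mcl1, needed for the survival of many cell types, WT libraries held 1535, 1420, 1449, 1663 and 1565 normalized counts, and KI libraries held 1159, 1393, 1404, 1368 and 1444. KI library 1 was the lowest and the groups overlapped narrowly (log2 fold change −0.17 ± 0.09 SE, adjusted p = 0.173), and the sign turned to 0.05 under library totals. Bcl2l2, which encodes BCL-w, a protein needed for spermatogenesis in mice, was at 217 ± 39.8 in WT and 226 ± 73.5 in KI (both SD, n = 5, log2 fold change 0.00 ± 0.22 SE). Its exons are shared with a read-through gene, Gm20521, so that its counts are uncertain.

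None of the 3 genes for pore-forming effectors passed the limma test, and 1, Bak1, had an unadjusted p under 0.05 by limma, as 1 did by edgeR. Bak1, the effector resident on the mitochondrion, was at 226, 202, 244, 236 and 231 normalized counts in WT and at 186, 204, 223, 187 and 164 in KI. Of the KI libraries, 3 were below each WT library and 2 were among them (log2 fold change −0.24 ± 0.11 SE, adjusted p = 0.134). Bax, the effector that moves from the cytosol to the mitochondrion, was at 73.7 ± 8.63 in WT and 79.8 ± 12.2 in KI (both SD, n = 5, adjusted p = 0.668). Bok had an estimate of 0.31 ± 0.19 (SE). Exons of Bak1 overlap those of Ggnbp1, and how the counting treated strand is not given in the sources used here.

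**Figure D2:**
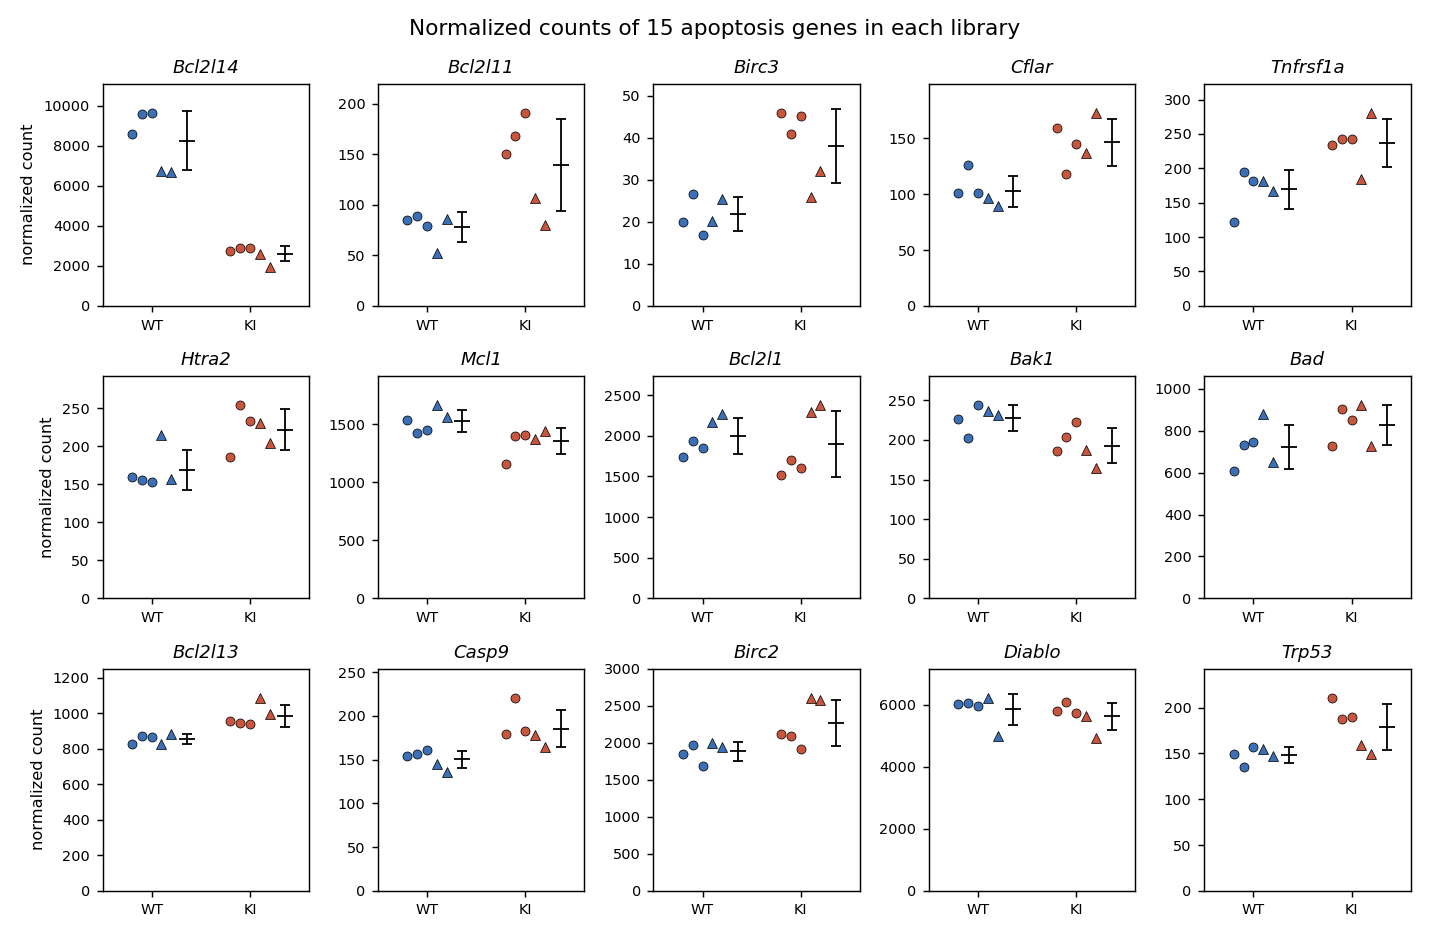
Normalized counts in each library for 15 of the genes, with circles for libraries 1 to 3, triangles for libraries 4 and 5, and a bar with ± 1 SD for the mean of each genotype (n = 5). Each vertical axis starts at 0, WT and KI do not overlap for Bcl2l14, Bcl2l13 and Casp9, and the triangles of Bcl2l11 and Birc3 in KI lie below the circles.

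None of the 4 caspase genes passed the limma test, nor did Apaf1, which encodes the scaffold of the apoptosome. At an unadjusted p under 0.05 there was 1 by limma, Casp9, and 1 by edgeR. Casp9, the initiator caspase of the apoptosome, had the highest level per kilobase. WT libraries held 154, 156, 161, 145 and 136 normalized counts, and KI libraries held 179, 221, 183, 178 and 165. Each KI library was above each WT library (fold change 1.22, log2 fold change 0.29 ± 0.11 SE, adjusted p = 0.0784). The adjusted p was 0.0427 with the mouse number as a block and 0.0414 with a term for library set instead. Casp2, an initiator caspase that responds to genome damage, was at 131 ± 21.8 in WT and 126 ± 14.3 in KI (both SD, n = 5). The estimates of Casp6, an executioner, and Casp8, the initiator of the death receptor route, were 0.23 and 0.31 with adjusted p of 0.476 and 0.434. The estimate of Apaf1 was −0.05 ± 0.22 (SE), with 0.24 in libraries 1 to 3 and −0.50 in libraries 4 and 5.

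Of the 5 genes for inhibitor of apoptosis proteins, Birc3 was up-regulated and the other 4 did not pass the test. Birc3 encodes cIAP2, a ubiquitin ligase of the TNF receptor complex and a target of NF-κB, and lies on chromosome 9 at 7847468 to 7873205 (− strand). It was a low transcript, at 19.9, 26.6, 16.9, 20.1 and 25.4 normalized counts in WT libraries and at 46.0, 40.8, 45.3, 26.0 and 32.2 in KI libraries. KI libraries 1 to 3 were the highest, KI library 5 was above each WT library, and KI library 4 was just below the highest WT library. The fold change was 1.70 (log2 fold change 0.77 ± 0.22 SE, adjusted p = 0.0202).

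The rise of Birc3 was 1.05 in libraries 1 to 3 (adjusted p = 0.0057) and 0.34 in libraries 4 and 5 (adjusted p = 0.634). It missed the threshold without WT library 3 (adjusted p = 0.0502), without KI library 1 (0.0553), without KI library 2 (0.051) and without KI library 3 (0.0587). The difference between the sets was not past the threshold (adjusted p of the interaction, 0.431).

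Birc2, which encodes cIAP1 and lies beside Birc3 on chromosome 9, was expressed at a far higher level. WT libraries held 1846, 1971, 1684, 2004 and 1943 normalized counts, and KI libraries held 2123, 2096, 1916, 2613 and 2579. Of the KI libraries, 4 were above each WT library (log2 fold change 0.25 ± 0.10 SE, adjusted p = 0.088). The adjusted p was 0.0185 with the mouse number as a block, 0.0181 with a term for library set instead and 0.0483 without KI library 3. Birc5, which encodes survivin and also acts in chromosome segregation, was at 930 ± 43.1 in WT and 823 ± 63.2 in KI (both SD, n = 5, adjusted p = 0.149), and its sign turned under library totals. In libraries 1 to 3 alone Birc5 was lower in KI (−0.28, adjusted p = 0.015), and in libraries 4 and 5 alone the estimate was −0.03. Xiap, the direct inhibitor of caspases, and Birc6, a large ubiquitin ligase, had estimates of 0.21 and 0.19.

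Of the antagonists of these inhibitors, Htra2 rose in KI and Diablo did not pass the test. Htra2 encodes a mitochondrial serine protease. WT libraries held 160, 156, 153, 215 and 157 normalized counts, and KI libraries held 186, 254, 233, 231 and 204. WT library 4 lay among the KI libraries and the other WT libraries lay below all of them (log2 fold change 0.40 ± 0.13 SE, adjusted p = 0.0358). The estimate was 0.50 in libraries 1 to 3 alone (adjusted p = 0.00986). Htra2 did not pass the adjusted p in libraries 4 and 5 alone (0.24, adjusted p = 0.527). It also missed it without WT library 1 (0.0753), 2 (0.0779), 3 (0.0793) or 5 (0.0683), or KI library 2 (0.0974), 3 (0.0792) or 4 (0.064). Exons of Htra2 overlap those of Loxl3 and Aup1, so that its counts are uncertain.

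Diablo encodes SMAC, which frees caspases from their inhibitors. It was at 6033, 6077, 5969, 6238 and 4991 normalized counts in WT and at 5794, 6091, 5736, 5634 and 4927 in KI. Library 5 was the lowest in both genotypes, and the groups overlapped (log2 fold change −0.06 ± 0.09 SE, adjusted p = 0.723), with a sign that turned to 0.17 under library totals.

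Both genes of the death receptor route that passed the test rose by less than 1.5-fold. Tnfrsf1a encodes the TNF receptor TNFR1. WT libraries held 122, 195, 182, 181 and 167 normalized counts, and KI libraries held 234, 242, 243, 184 and 281. KI library 4 lay among the WT libraries and the other KI libraries lay above them (log2 fold change 0.48 ± 0.15 SE, adjusted p = 0.0255). The estimate was 0.55 in libraries 1 to 3 alone (adjusted p = 0.0132). Tnfrsf1a did not pass the adjusted p in libraries 4 and 5 alone (0.39, adjusted p = 0.312). It also missed it without WT library 1 (0.065) or KI library 2 (0.0552), 3 (0.0543) or 5 (0.0562).

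Cflar encodes c-FLIP, the inhibitor of caspase-8 at death receptors. WT libraries held 101, 126, 101, 96.3 and 89.4 normalized counts, and KI libraries held 159, 118, 145, 137 and 173. KI library 2 was below the highest WT library and the other KI libraries were above it (log2 fold change 0.50 ± 0.14 SE, adjusted p = 0.0162). The estimate was 0.36 in libraries 1 to 3 alone (adjusted p = 0.105) and 0.72 in libraries 4 and 5 alone (0.0629). Leaving out any 1 library kept Cflar past the adjusted p. Fadd, the adaptor between receptor and caspase-8, had an estimate of 0.30 ± 0.14 (SE) that did not pass the test (adjusted p = 0.148).

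Tnfrsf1a, Birc3 and Cflar moved in the same direction as most markers of several somatic cells. The 9 macrophage markers summed to 3375 to 4421 normalized counts in WT and 2485 to 2945 in KI, a sum in which Aif1, at a mean of 3016 in WT, outweighed the rest and fell, while the other 8 summed to 766 to 1010 and 1154 to 1525. Endothelial markers summed to 265 to 365 in WT and 424 to 805 in KI. Leydig cell markers summed to 10291 to 18066 in WT and 14779 to 25692 in KI, and Sertoli cell markers to 5957 to 9832 and 6115 to 10491. The Sertoli cell sum averaged 7859 in WT and 9878 in KI in libraries 1 to 3, but 8997 in WT and 6507 in KI in libraries 4 and 5. Peritubular myoid markers summed to 120 to 208 in WT and 191 to 236 in KI. Ptprc, the lymphocyte marker found in the table out of 6, was at 12.7 to 32.9 and 19.5 to 44.2 (adjusted p = 0.0551). The part of these cells in the rises, that of Bcl2l11 and Htra2 included, was not tested.

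Trp53, the gene of the transcription factor p53, was at 149, 135, 157, 155 and 147 normalized counts in WT and at 211, 188, 190, 159 and 149 in KI. KI libraries 1 to 4 were above each WT library, and KI library 5 lay among them. The log2 fold change was 0.26 ± 0.12 (SE, adjusted p = 0.142), with 0.42 in libraries 1 to 3 alone (adjusted p = 0.0222) and 0.03 in libraries 4 and 5 alone (adjusted p = 0.958).

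Levels were compared between genes as normalized counts per kilobase of exon. The length was that of all exons annotated to a gene, merged over its transcripts, with 4.093 kb for Bcl2l14 and 6.166 kb for Diablo. A gene whose expressed transcripts are shorter than this is understated. The order of genes and the shares of summed levels therefore depend on this choice of length. Bcl2l14 had the highest level in WT, at 2014 ± 360 (SD, n = 5), followed by Diablo at 951 ± 80.5 (SD, n = 5), and their libraries did not overlap. Mcl1 at 447 ± 28.3 (SD, n = 5), Bcl2l1 at 434 ± 48.2 (SD, n = 5) and Birc2 at 413 ± 28.2 (SD, n = 5) came next and overlapped each other. Bad at 283 and Birc5 at 273 were followed, after a gap, by Bak1 at 94.6 and Bcl2l13 at 94.0. From Trp53 at 36.7 to Cflar at 8.12 each gene overlapped the next in order, and Bmf at 5.00 and Birc3 at 4.35 were lowest. In KI, Diablo was highest at 914 ± 70.0 (SD, n = 5) and Bcl2l14 was at 638 ± 95.5 (SD, n = 5). Beside the genes named above for shared exons, exons of Bad, Bax, Bcl2l13, Bid, Birc6, Casp9, Diablo and Fadd overlap those of other annotated genes, so that their counts may hold reads of these.

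**Figure D3:**
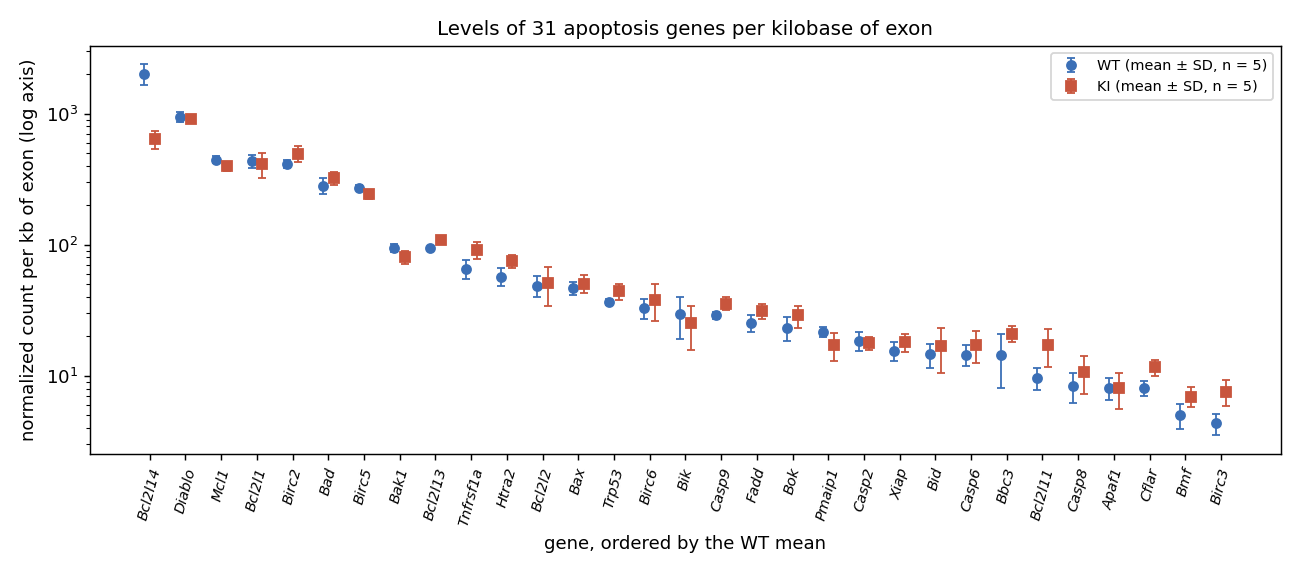
Normalized counts per kilobase of exon on a log axis for the 31 genes, ordered by the WT mean, with blue circles for WT and red squares for KI (mean ± SD, n = 5). Bcl2l14 falls from 2014 in WT to 638 in KI, below Diablo at 914, while the levels span from 4.35 to 2014 in WT.

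The fall of Bcl2l14 changed the makeup of the BCL2 family transcripts. It made up 59.0, 61.0, 60.3, 49.1 and 50.2 percent of the summed level per kilobase of the 15 BCL2 family genes in WT libraries 1 to 5, and 32.3, 30.9, 31.1, 27.7 and 23.1 percent in KI libraries 1 to 5. The shares of the genotypes did not overlap. The sum of the other 14 genes was 1566 ± 98.2 in WT and 1556 ± 91.9 in KI (both SD, n = 5), with ranges of 1457 to 1706 and 1404 to 1648 that overlapped. The shares do not depend on how libraries are scaled, but these sums do, and they hold for the values as deposited only. Sums under library totals are not given here, where the median log2 fold change of the 31 genes was 0.43 in place of 0.20.

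Within the sets of libraries, the median log2 fold change of the 31 genes was 0.24 for libraries 1 to 3 and 0.07 for libraries 4 and 5. Over all genes it was 0.02 for either set. The estimate was smaller in libraries 4 and 5 for 21 of 31 genes (67.7%, beside 49.4% of all genes). For 0 of the 31 genes did limma find a difference between the sets at an adjusted p under 0.05, which 0.247% of all genes tested met. At an unadjusted p under 0.05 there were 3, namely Bax, Bid and Apaf1, with estimates of 0.36, 0.46 and 0.24 in libraries 1 to 3 and −0.27, −0.34 and −0.50 in libraries 4 and 5. The edgeR test likewise gave 0 at the adjusted p and 4 at the unadjusted p. The share of all genes at that unadjusted p was not computed, so that these counts cannot be read against it.

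**Figure D4:**
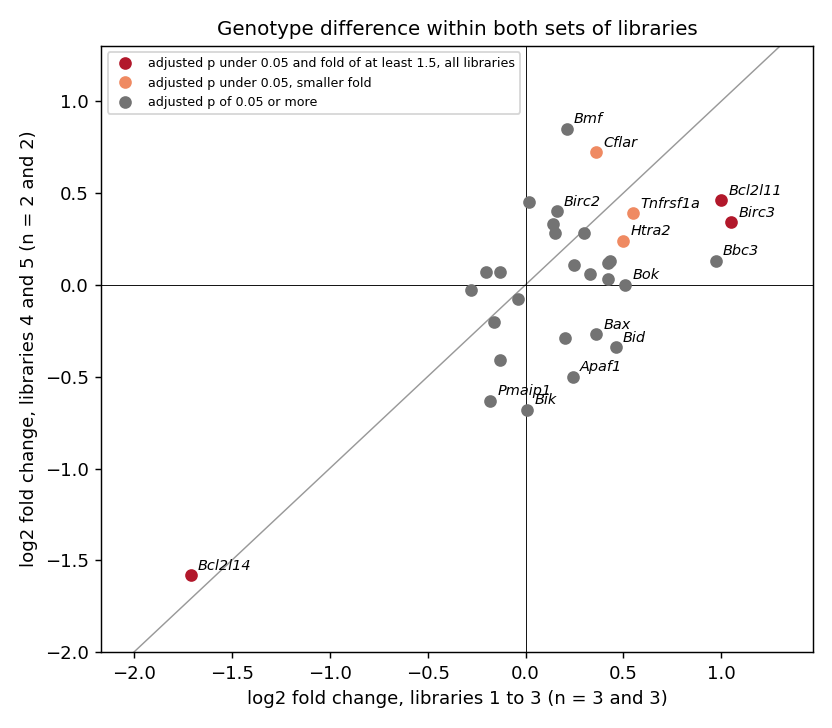
Log2 fold change of KI against WT in libraries 1 to 3 (horizontal axis, n = 3 and 3) and in libraries 4 and 5 (vertical axis, n = 2 and 2) for the 31 genes, with the line of equal values in grey. Bcl2l14 lies near the line at −1.71 and −1.58, while Bcl2l11 at 1.00 and 0.46 and Birc3 at 1.05 and 0.34 lie below it.

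A further list of 76 genes of the pathway, of which 58 were measured and tested, was set beside these. Of the 58, 3 were up-regulated and 1 was down-regulated (6.90% together, beside 14.4% of all genes). At the adjusted p alone 6 were higher, 3 were lower and 49 did not pass (15.5% past it, beside 22.9% of all genes), and with the mouse number as a block 15 passed (25.9%, beside 32.0%). Under library totals 11 were called (19.0%, beside 19.1%). The median log2 fold change of the 58 was 0.11, beside 0.03 over all genes. The death ligands held 1 call among 2 genes, receptors and signalling adaptors 2 among 14, and p53 regulators and targets 1 among 19. There was 0 called among 6 other BCL2 relatives, 6 other caspases and their substrates, 8 mitochondrial proteins and 3 other inhibitors and their partners, where limma and edgeR each gave 2, 0, 1 and 2 at an unadjusted p under 0.05.

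Mlkl, which encodes the executor of necroptosis, was down-regulated. WT libraries held 132, 136, 163, 101 and 125 normalized counts and KI libraries 38.1, 33.0, 23.7, 19.2 and 28.5, and the groups did not overlap. On the log2(normalized count + 1) scale the level was 4.56-fold lower in KI (log2 fold change −2.19 ± 0.20 SE, adjusted p = 1.41e-06). The estimate was −2.17 in libraries 1 to 3 alone and −2.22 in libraries 4 and 5 alone.

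Tnfrsf12a, which encodes the TWEAK receptor Fn14, had the largest rise of the 58. WT libraries held 12.6, 3.47, 10.9, 19.1 and 9.41 normalized counts, and KI libraries held 54.0, 75.6, 48.4, 46.2 and 53.4. All KI libraries were above all WT libraries (log2 fold change 2.36 ± 0.33 SE, adjusted p = 0.0001), with 2.73 in libraries 1 to 3 alone and 1.81 in libraries 4 and 5 alone. The gene of its ligand TWEAK, Tnfsf12, was at 18.2 ± 3.94 in WT and 31.7 ± 5.10 in KI (both SD, n = 5, log2 fold change 0.78 ± 0.23 SE, adjusted p = 0.0208), without overlap. The call of Tnfsf12 was lost without KI library 2 (adjusted p = 0.0575) and in libraries 4 and 5 alone (0.82, adjusted p = 0.269), where libraries 1 to 3 alone gave 0.75. Its exons are shared with the read-through gene Tnfsfm13.

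Phlda3, a p53 target whose product restrains AKT, was at 30.4 ± 8.90 in WT and 65.6 ± 5.89 in KI (both SD, n = 5), without overlap. The log2 fold change was 1.14 ± 0.22 (SE, adjusted p = 0.00134), with 1.28 in libraries 1 to 3 alone and 0.92 in libraries 4 and 5 alone (adjusted p = 0.0671). Mdm2, the ubiquitin ligase of p53, and Cdkn1a, the p53 target p21, had estimates of 0.05 and 0.34 with adjusted p of 0.667 and 0.299.

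**Figure D5:**
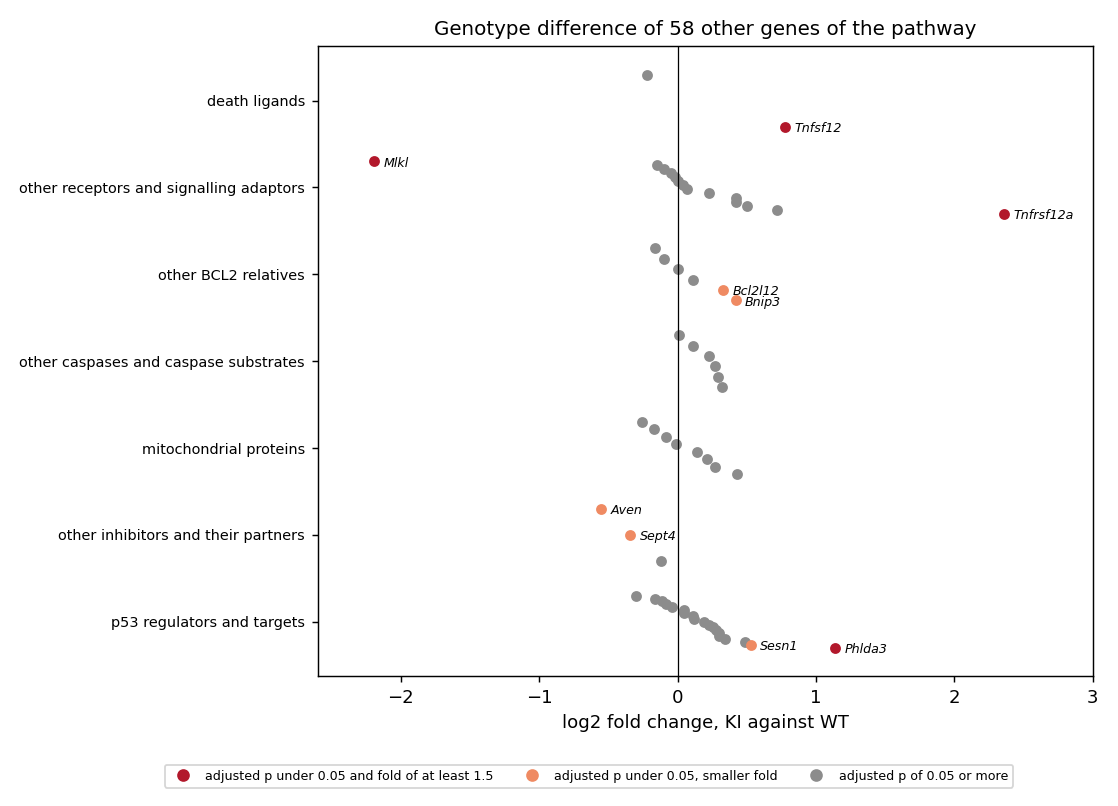
Log2 fold change of KI against WT for 58 further genes of the pathway, 1 point per gene, in rows by list and spread vertically for legibility. Red points passed both thresholds, orange points passed the adjusted p alone, and Tnfrsf12a at 2.36 and Mlkl at −2.19 lie farthest from 0.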

How the data were processed

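Testis germ cell RNA of 5 WT and 5 KI mice was measured, 1 library per mouse, grouped by the genotype in the labels. Per the methods, the authors used STAR for alignment to mm10 and the E/M model of Partek for counting on RefSeq genes. They deposited a normalized signal per gene and library, which is a count divided by the size factor of DESeq2. Whole reads were recovered from that signal for 100% of values under 5000 reads (tolerance 0.02). Whether strand was used in counting is not given in the sources used here. All per-sample columns were assigned to a library.

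The main test was limma (version 3.58.1, R 4.3.3) with a variance trend on log2(value + 1), so that fold changes of low genes are understated. Genes passed filterByExpr of edgeR (version 4.0.16), and the Benjamini-Hochberg adjustment of p-values ran over the 15389 genes tested. Fold changes were taken from that scale. The quasi-likelihood test of edgeR and DESeq2 (version 1.42.0) on recovered reads, other scalings, pseudocounts, filters and thresholds, a term for library set, a block for mouse number, each library set alone and each library left out were alternatives. The difference between library sets was tested as an interaction. Counting limits the precision of low genes: 3 reads remain possible where 0 are seen.

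The members and lists were chosen with earlier results of these data known. Every gene is named. Genes past both thresholds and the gene of each role with the highest level per kilobase are given in every library. Of the further pathway genes, those past both thresholds are named. Per-library values of Mcl1, Htra2 and Cflar, estimates of all remaining members, and Mdm2 and Cdkn1a were added after their values were seen. Exon lengths came from GENCODE vM21, gene positions from RefSeq.

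Libraries of the same number come from different mice, but after removing genotype means they correlated with r of 0.306, 0.105, 0.28, 0.216 and 0.462, beside a mean of 0.134 for other pairs of the same set and −0.201 for pairs of different sets. The r of 0.105 lay below the mean of 0.134 for other pairs of the same set, and the others lay above it. Whether the numbers pair the libraries was not tested, and these correlations alone cannot decide it. The fits with a block for mouse number are therefore alternatives only. The main test has no block, since the study's methods name none. The immunoprecipitation, protein and histology experiments were not analysed here.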

Additional observations from a re-analysis of the deposited data

Results flagged for a closer look

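Within each genotype, the highest and the lowest library of each of the 31 genes and of the 9 further pathway genes past the adjusted p were compared with the other 4 libraries by Dixon's ratio, at a critical value of 0.71 for 5 libraries. Of 80 groups, 7 had a library beyond it, and chance gives about 1 in 20. Mcl1 was at 1159 normalized counts in KI library 1, with 1368 to 1444 in the other KI libraries. Pmaip1 was at 49.5 in WT library 3, with 60.2 to 62.4 in the others. Bcl2l11 was at 52.2 in WT library 4, with 78.5 to 89.0 in the others, and without it the adjusted p was 0.0502. Diablo was at 4991 in WT library 5, with 5969 to 6238 in the others. Htra2 was at 215 in WT library 4, with 153 to 160 in the others, and it stayed past the adjusted p without that library. Sept4 was at 1737 in KI library 4, with 1417 to 1483 in the others, and Tnfrsf12a was at 75.6 in KI library 2, with 46.2 to 54.0 in the others.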

How the results depend on the processing

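Of 23 alternative fits, all kept the call of Bcl2l14 (−1.73 to −1.42 on the log2 scale), and 14 of the 31 genes passed the adjusted p in none. The number of the 31 genes that were differentially expressed, 3, became 8 under library totals (25.8%, beside 19.1% of all genes) and 1 in libraries 4 and 5 alone (3.23%, beside 10.1%). It became 1 at an adjusted p under 0.01, where 1655 of 15389 genes were called, and 1 to 4 with a library left out. Bcl2l14 alone remained without KI library 2 and without KI library 3, where 2101 and 2099 of all genes were called. The number past the adjusted p, 6, became 16 under library totals (51.6%, beside 40.5% of all genes) and 10 under upper quartiles (32.3%, beside 26.2%). It became 1 in libraries 4 and 5 alone (3.23%, beside 11%), and 2 to 6 with a library left out (2 without KI library 2 and 3 without KI library 3). The number without overlap, 3, became 12 under library totals (38.7%, beside 24.9% of all genes) and 7 under upper quartiles (22.6%, beside 18.9%). The further pathway genes called, 4 (6.9%, beside 14.4% of all genes), became 11 under library totals (19%, beside 19.1%). Their number became 8 in libraries 1 to 3 alone (13.8%, beside 15.8% of all genes). In libraries 4 and 5 alone it became 2 (3.45%, beside 10.1%). It was 2 under a filter of 50 reads in 5 libraries, which removed Tnfrsf12a and Tnfsf12 from the test, and 3 to 6 with a library left out. The causes of these changes were not tested. In some alternative 11 of the 31 genes came past the adjusted p that they missed in the main fit. All but Birc5 of these did so under library totals. The fit with a replicate block gave 9 of the 31 genes past the adjusted p, adding Bcl2l13, Birc2 and Casp9. It gave 3 differentially expressed, and no other of the 31 genes changed at either threshold. Of the further pathway genes it called 5 (8.62%, beside 15.7% of all genes), adding Tnfrsf1b. A term for library set in place of the block added the same genes. Over all genes the calls stayed between 1559 and 2934, from 2209, and at 1971 to 2303 with a library left out. Depth limits most the 11 genes with a mean under 100 normalized counts in both genotypes, Bcl2l14 not among them.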

Other observations

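Beyond the further pathway genes described above, 5 passed the adjusted p with a fold change under 1.5 and are named because they are few, after their values were seen. Aven, whose product binds APAF1 and BCL-xL and restrains apoptosis, was lower in KI at 1998 ± 175 (SD, n = 5) against 2929 ± 123 (SD, n = 5) in WT (limma log2 fold change −0.55 ± 0.08 SE, adjusted p = 0.000212), without overlap and in each of the 23 alternative fits. Sept4, which encodes a septin of the sperm annulus and, in one isoform, an antagonist of XIAP, was lower (−0.34 ± 0.10 SE, adjusted p = 0.0242), but not under library totals (adjusted p = 0.309) or upper quartiles (0.0715), in libraries 4 and 5 alone (0.706), or without WT library 2 (0.0697) or 3 (0.0605) or KI library 1 (0.0515), 2 (0.0603) or 3 (0.0573).

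Sesn1, a stress-responsive p53 target, was higher in KI (0.53 ± 0.14 SE, limma adjusted p = 0.0124), with an adjusted p of 0.263 in libraries 4 and 5 alone. Bnip3, which acts in the removal of mitochondria, was higher (0.42 ± 0.12 SE, adjusted p = 0.0185), with 0.0512 without KI library 1 and 0.322 in libraries 4 and 5 alone. Bcl2l12 was higher (0.33 ± 0.10 SE, adjusted p = 0.0301), with 0.4 in libraries 4 and 5 alone, 0.0725, 0.066 and 0.0698 without WT library 1, 2 or 5, and 0.0877 and 0.0621 without KI library 2 or 3. Exons of Aven, Sept4, Bnip3 and Bcl2l12 overlap those of other annotated genes, so that their counts may hold reads of these.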
